A study of Monodelphis domestica and Mus musculus with 26 samples.

Results

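The late spermatocytes of the mouse testis described here are 4069 of 25445 cells kept from 3 single-cell libraries. Kept cells had at least 1000 counts and 500 detected genes. A kept cell was a member when Ccna1, Aurka, Plk1, Pabpc6 and Speer4e summed to at least 3.5 counts, Dmrt1 and Crabp1 to less than 1.5, Acrv1 to less than 3, and the protamine and transition protein genes Prm1, Prm2, Tnp1 and Tnp2 to less than 1% of the cell's counts. The measured values of these 12 genes chose the cells, so they are described below and not tested. The members numbered 823, 2367 and 879 in replicates 1, 2 and 3.

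The study compared gene regulation during sperm formation in mouse and opossum, and only its 3 mouse single-cell libraries were used here. Whole testes of adult male C57BL6/J mice were dissociated with collagenase and trypsin and loaded on a droplet system that tags the 3′ ends of transcripts in single cells, with no treatment and no sorting of cell types. The strain is a tag of replicates 1 and 2, and for replicate 3 it is given in the shared protocol only. The labels number the libraries without saying that each came from a separate animal, so p-values measure the spread between these samples, which may be technical.

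A spermatocyte that leaves pachytene takes apart the synaptonemal complex, the protein ladder that holds paired homologous chromosomes together, and at the end of diplotene enters the first meiotic division. Cyclin-dependent kinase 1 with its B cyclins, the Aurora kinases and Polo-like kinase 1 drive that entry, and the anaphase-promoting complex ends it by releasing the cohesins that hold chromosomes together. In the male the X and Y chromosomes are silenced from pachytene onward and stay largely silent after the divisions. Spermatocytes at this stage also store transcripts for the acrosome and the flagellum, structures that are built later, in the spermatids.

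The libraries held 65263953, 55044965 and 45395185 counts over 13451, 10861 and 11400 barcodes. Members were deep cells, with median counts of 17101, 8129 and 8231 per cell against 2346, 2769.5 and 2684 in all other kept cells. No member barcode occurred in 2 libraries, although replicates 1 and 2 shared 76 kept barcodes. No doublet was removed from the values given here. In replicates 1, 2 and 3, 5.83%, 8.24% and 7.39% of members were among the 8% of kept cells with the highest doublet scores. Mitochondrial transcripts made up 0.887%, 0.213% and 1.01% of the members' counts.

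Values of a gene are given in the order of replicates 1, 2 and 3 as CPM, the gene's summed counts in a class of cells of that library scaled to a total of 1000000. Ccna1, the cyclin A of male meiosis, had 387, 551 and 225 CPM in members and 112, 197 and 47.9 CPM in all other kept cells. Aurka, the kinase of the spindle poles, had 494, 614 and 387 CPM against 110.2, 179 and 52.0 CPM. Plk1 had 201, 263 and 106 CPM against 88.1, 110.4 and 36.7 CPM. These sets of values did not overlap for Ccna1 and Aurka. The lowest Plk1 value of the members, in replicate 3, lay just below the highest of the other cells, in replicate 2. All other kept cells include 761, 815 and 312 cells that reached the limit on summed late markers but failed another limit of the rule. Those cells held 14887838 of 43725690, 11160168 of 28960007 and 3074770 of 33632096 counts of all other kept cells. The values of all other kept cells, here and below, are therefore not those of cells without late markers.

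Pabpc6, a testis gene for a poly(A)-binding protein, had 497, 618 and 718 CPM in members and 75.01, 168 and 54.1 CPM in other kept cells. It made up 30.3%, 27.9% and 49.6% of the summed marker counts, so in replicate 3 it chose the members more than any other gene. Without Pabpc6, 91.6%, 92.9% and 76.3% of members would still have met the rule. Speer4e, a member of a testis-expressed gene family with many near-identical copies, had 62.0, 168 and 12.1 CPM and made up 3.78%, 7.58% and 0.833% of the sum. Its counts can be split with those copies, and in replicate 3 it hardly took part in the choice.

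**Figure D1:**
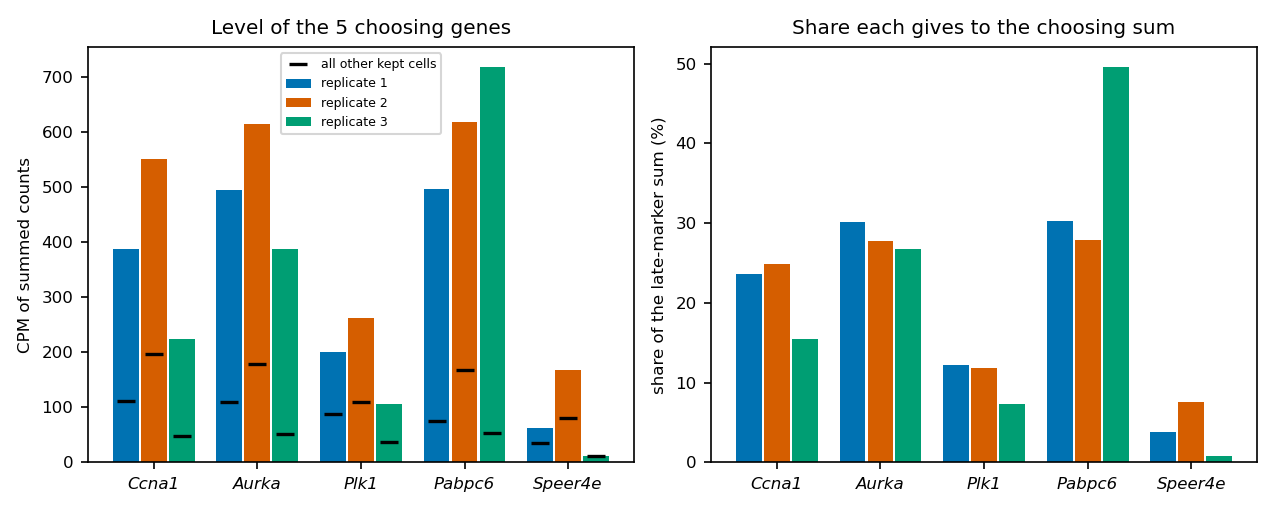
Left, CPM of the 5 genes that chose the cells (vertical axis), with a bar for the members of each library and a black dash for its other kept cells. Right, the percent each gene gave to the summed marker counts of the members. Every bar stands above its dash, with Speer4e in replicate 3 nearly level at 12.1 against 11.3 CPM, and Pabpc6 gives 49.6% of the sum in replicate 3.

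The share of members was 10.1% (95% exact binomial interval 9.47 to 10.8), 30.2% (29.2 to 31.2) and 9.28% (8.70 to 9.88) of kept cells. Its mean was 16.5% ± 11.9 (SD, n = 3). Replicate 2 stood apart, above the intervals of the other libraries. A limit on summed counts is easier to reach in a deep cell. Among cells of at least 2000 counts, 822 of 4911, 2331 of 5639 and 856 of 6301 were members. With entries rounded and each such cell thinned to 2000 counts, 466 of 5068, 1643 of 5816 and 353 of 6563 met the rule. These shares of 9.19%, 28.2% and 5.38% leave out shallower cells and were below the shares before thinning in each library. The same rule would have taken 1584, 3182 and 1191 cells by their late markers alone. Acrv1, the round spermatid gene for an acrosomal vesicle protein, put 562, 421 and 285 of these outside its limit. The protamine and transition protein limit was passed by 219, 422 and 17 cells, and that of Dmrt1 and Crabp1, genes of spermatogonia, by 22, 10 and 13. A larger share of these cells in the testis and a better recovery of them after dissociation cannot be told apart.

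The label, diplotene to division, was set against Sycp1, a gene that the rule did not use. Near the limit of 3.5 counts cells on both sides were alike in Sycp1. This gene, which encodes the transverse filament of the synaptonemal complex, was at 1498, 303 and 746 CPM in the 36, 108 and 95 cells less than 1 count inside the limit. In the 53, 140 and 175 cells less than 1 count outside it, Sycp1 was at 1552, 339 and 857 CPM. The cells with the fewest late markers therefore carried about as much of this pachytene transcript as the cells beyond the limit. The label is thus not met at the lower end of the range. Levels along the order of late markers are described further on, and because that order uses the rule's own genes they lend no support to the label.

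Markers of other testis cells were low in the members. The 10 Leydig cell genes of the list summed to 76.5, 39.8 and 107 CPM in members and to 774, 1469 and 648 CPM in all other kept cells, and none of them was at 0 in the members of any library. The 17 Sertoli cell genes summed to 89.1, 23.6 and 41.7 CPM against 935, 359 and 744 CPM, with 1, 2 and 0 genes at 0. The 20 spermatogonial genes summed to 132, 86.7 and 142 CPM against 283, 133 and 341 CPM, with 0, 2 and 0 at 0. Peritubular genes reached at most 22.95 CPM in the members of a library, endothelial genes 9.43 CPM and immune genes 6.84 CPM. The 5 red cell genes summed to 0.479, 71.5 and 4.88 CPM, highest in replicate 2. Insl3, the Leydig cell hormone gene, was at 15.8, 32.7 and 157 CPM just inside the limit and at 3.44, 1.16 and 0 CPM just outside it. Cells just inside the limit thus had more Insl3 than cells just outside it in each library, and the part of somatic transcripts in the differences between classes was not tested beyond the values given beside them.

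Sequences are shown here for examples of division genes that were higher at the end than at the start of the order of late markers. They are shown because a motif known as the cell cycle genes homology region (CHR, TTTGAA) and the CCAAT box recur in promoters of genes used at division. Each is the 250 bases before the annotated start of the canonical transcript in the GRCm39 genome, written 5′ to 3′ on the gene's strand, with TTTGAA and CCAAT on either strand in capitals. Neither motif contains the other. The promoter of Cdk1, the kinase of entry into division, lies on the minus strand at chr10:69188769-69189018, with the CHR 45 bases before the start and 3 CCAAT boxes. That of Aurkb, the Aurora kinase of the chromosomal passenger complex, lies on the plus strand at chr11:68936217-68936466, with the CHR 119 bases before the start and 3 CCAAT boxes. That of Kif23, a kinesin of the central spindle, lies on the minus strand at chr9:61854074-61854323, with the CHR 6 bases before the start and 1 CCAAT box. That of Ccnb1, the cyclin B1 gene, lies on the minus strand at chr13:100923117-100923366 and holds neither motif in this window. The promoters of Incenp, Birc5, Spc25, Cdca5, Nusap1 and Cenpe, division genes called higher in members further on, hold no TTTGAA. Of these only that of Spc25 holds CCAAT. The promoter of Pttg1, called higher as well, holds both motifs. The sequences shown are examples and do not stand for the division genes as a set.
Cdk1: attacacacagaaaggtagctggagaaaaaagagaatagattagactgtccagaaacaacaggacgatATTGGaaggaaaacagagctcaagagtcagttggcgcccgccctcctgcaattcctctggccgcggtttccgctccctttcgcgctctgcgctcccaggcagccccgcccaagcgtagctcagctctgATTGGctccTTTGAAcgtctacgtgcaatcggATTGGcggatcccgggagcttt
Aurkb: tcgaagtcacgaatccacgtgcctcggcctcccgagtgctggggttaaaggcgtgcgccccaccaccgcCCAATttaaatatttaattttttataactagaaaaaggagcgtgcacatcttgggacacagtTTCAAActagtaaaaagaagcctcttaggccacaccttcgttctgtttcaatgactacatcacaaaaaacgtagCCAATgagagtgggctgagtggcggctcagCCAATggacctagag
Kif23: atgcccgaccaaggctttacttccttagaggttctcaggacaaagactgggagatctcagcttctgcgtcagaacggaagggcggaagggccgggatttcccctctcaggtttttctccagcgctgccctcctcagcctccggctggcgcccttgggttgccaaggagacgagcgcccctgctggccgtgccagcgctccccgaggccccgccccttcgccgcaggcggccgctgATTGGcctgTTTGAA
Ccnb1: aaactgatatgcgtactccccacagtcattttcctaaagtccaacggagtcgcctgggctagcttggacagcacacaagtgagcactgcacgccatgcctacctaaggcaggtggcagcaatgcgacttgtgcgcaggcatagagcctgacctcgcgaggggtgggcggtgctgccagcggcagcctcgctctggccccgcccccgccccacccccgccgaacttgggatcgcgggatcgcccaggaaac

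TTTGAA was present in 13.2% of the 1403 promoters of genes called higher in members than in cells chosen by pachytene genes, a comparison described next, and in 13.1% of the promoters of all genes tested. CCAAT was present in 32% against 35.7%, so both motifs were about as common among these genes as among all. The cyclic AMP response element TGACGTCA, known from genes switched on in spermatids, was present in 1.14% against 1.995%. Among the 61 genes that were 2-fold higher in the upper bin of members in each library, 16.4% held TTTGAA and 29.5% held CCAAT. All 4223 genes measured there held them in 12.7% and 35.55%. No test was made of these shares, and a match is no evidence of a factor bound there.

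Members were compared with 682 kept cells in which Piwil1, Mybl1, Tdrd5, Tdrd6 and Insl6 summed to at least 3.5 counts while the late markers stayed under 3.5 and every other limit of the rule was met. These are called pachytene-list cells. They numbered 123, 257 and 302, with median counts of 9289.9, 5559.9 and 6269 per cell, so they were shallower than the members. The 5 choosing genes summed to 1119, 1078 and 1468 CPM in these cells and to 1077, 1052 and 1365 CPM in members. The sum of these pachytene genes thus did not separate the classes, which differ by rule in the late markers. The members were also compared with 946 cells under the late marker limit that had at least 3 counts of Acrv1 and less than 1% protamine and transition protein counts. These 116, 150 and 680 Acrv1 cells had median counts of 17542, 8955 and 7692. Since all classes were sorted on genes of the same libraries, a call says how the chosen cells differed in other genes and how steady that was over 3 libraries. It lends no support to the choice of cells itself.

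Insl6 carried weight in the first comparison. It is an insulin-like gene also expressed in spermatids, and the 5-gene class held spermatid transcripts in each library, most in replicate 2. Spaca1, a membrane protein of the acrosome, was at 148, 555 and 228 CPM in the pachytene-list cells, and at 1.93, 30.7 and 33.5 CPM when they were chosen by the other 4 genes alone. The members had 79.9, 170 and 96.4 CPM, between these values in every library. The 4-gene choice left 85, 67 and 203 cells and was made after the data had been seen. Results of both choices are therefore given side by side for most lists and some genes. Values given for the 5-gene choice alone, the motif shares above among them, may differ under the other choice.

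Of 15992 genes tested, 1409 were called higher in members than in pachytene-list cells, 8.81% of all, and 2552 were called lower, 16%. A call required an adjusted p under 0.05 in edgeR's quasi-likelihood test, with Benjamini-Hochberg adjustment and the library as a block, and a 2-fold difference. The median log2 difference over all genes was -0.24. Against the cells chosen without Insl6, 3842 of 16898 genes were called higher (22.7%) and 1998 lower (11.8%), with a median of 0.43. The count depended on the libraries as well, since without replicate 1 only 101 genes were called higher and 438 lower. Without replicate 2 the counts were 852 and 713, and without replicate 3 they were 707 and 1141. Without the library as a block they were 184 and 626.

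Among genes of entry into division, Ccnb1 (ENSMUSG00000041431, chr13:100915153-100923116), the cyclin B1 that activates Cdk1, had 259.6, 408 and 100.5 CPM in members. The pachytene-list cells had 56.9, 161 and 54.6 CPM, and those chosen without Insl6 had 27.4, 21.0 and 23.7 CPM. Replicate 2 was highest in both of the first classes, and its pachytene-list value lay above the members of replicate 3, while the values without Insl6 all lay below the members. The log2 difference in edgeR's quasi-likelihood test was 1.77 ± 0.34 (SE; adjusted p = 0.00251) with Insl6 and 3.70 ± 0.41 (SE; adjusted p = 2.01e-05) without it.

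Cdk1 (ENSMUSG00000019942, chr10:69170976-69236595) itself had 138, 154 and 168 CPM in members and 153, 62.2 and 125 CPM in pachytene-list cells. These values overlapped, and the difference of 0.84 ± 0.34 (SE; adjusted p = 0.0764) did not pass edgeR's test with the 2-fold limit. In Acrv1 cells Cdk1 was at 7.17, 11.0 and 8.28 CPM, far below every member library, a log2 difference of 4.09 ± 0.40 (SE; adjusted p = 3.88e-07) in edgeR's test. Transcripts of the kinase were thus present before and during the late stage and nearly gone from the Acrv1 cells.

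Aurora kinases other than Aurka showed the same side of the comparison. Aurkb had 27.6, 40.5 and 43.0 CPM in members, 1.45, 7.08 and 5.69 CPM in pachytene-list cells and 4.10, 3.91 and 2.17 CPM in Acrv1 cells. Members of every library lay above both other classes, with log2 differences of 3.21 ± 0.50 (SE; adjusted p = 0.00103) and 3.43 ± 0.50 (SE; adjusted p = 1.49e-05) in edgeR's test. Aurkc, the Aurora kinase of meiosis, had 24.8, 34.3 and 73.7 CPM in members against 7.42, 14.1 and 8.98 CPM in pachytene-list cells, without overlap. Its highest value was in replicate 3, in which Aurka and Ccna1 were lowest.

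Of the 27 tested genes of the list for Cdk1, its cyclins and entry into division, 5 were called higher and 2 lower than in pachytene-list cells, with a median of 0.22, where 8.81% and 16% of all genes were called. Against the cells chosen without Insl6, 7 were higher and 4 lower, shares near the 22.7% and 11.8% of all genes in that comparison. This list and the spindle and anaphase-promoting lists below hold genes of the same stage as Ccna1, Aurka and Plk1. Those markers chose the members, so the direction of these lists is in part set by the choice. Cdc25a, a phosphatase that switches on cyclin-dependent kinases, had 48.0, 78.0 and 73.1 CPM against 19.3, 28.6 and 35.1 CPM, and Nek2, a centrosome kinase, had 183, 208 and 201 CPM against 89.95, 70.4 and 140.4 CPM. Neither gene's values overlapped. Against cells chosen without Insl6, Nek2 missed the call at a log2 difference of 1.02. The lower calls were Cks1b, a small subunit of cyclin-dependent kinases, at -2.10, and Dazl, an RNA-binding protein of germ cells, with 81.9, 7.42 and 54.8 CPM in members and 900.3, 82.5 and 619 CPM in pachytene-list cells.

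Ccnb2, the cyclin B2 gene, and Hspa2, a chaperone that spermatocytes need for division, were near their pachytene level. Ccnb2 had 382, 489 and 326 CPM in members and 286, 389 and 248 CPM in pachytene-list cells. Hspa2 had 1495, 1602 and 1805 CPM against 1833, 1456 and 1555 CPM. Both overlapped, and the log2 difference of Hspa2 was 0.29. Against cells chosen without Insl6, Ccnb2 passed the test.

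Of 49 tested genes of the spindle and the kinetochore, the machinery by which chromosomes attach to microtubules, 7 were called higher and 2 lower in members than in pachytene-list cells, with a median of 0.38. The 7 were Incenp, Birc5, Kif23, Spc25, Cdca5, Nusap1 and Cenpe. Over all genes 8.81% were called higher and 16% lower. Without replicates 1, 2 and 3 in turn, 1, 3 and 10 of the list were called higher. The same settings called 101 of 18250, 852 of 18087 and 707 of 15695 of all genes higher. Without Insl6 in the choice, 10 were higher and 6 lower, against 22.7% higher and 11.8% lower over all genes, so that the list did not stand above the background there.

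Incenp, the scaffold of the chromosomal passenger complex, had 74.6, 99.5 and 51.4 CPM in members and 22.0, 33.2 and 31.0 CPM in pachytene-list cells. Birc5, the survivin subunit of that complex, had 332, 358 and 339.5 CPM against 135, 152 and 135 CPM. Kif23 had 53.6, 82.1 and 44.5 CPM against 23.5, 24.8 and 28.3 CPM. In all 3 genes the lowest member library was above the highest pachytene-list library, and Incenp and Birc5 are partners of Aurkb in its complex. The log2 differences in edgeR's test were 1.66 ± 0.36 (SE; adjusted p = 0.0044) for Incenp and 1.55 ± 0.44 (SE; adjusted p = 0.0165) for Kif23. Spc25, a subunit of the outer kinetochore, had 82.4, 133 and 46.4 CPM in members, while the pachytene-list cells reached 51.4 CPM in replicate 2, above the members of replicate 3.

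Cdca5 (sororin, which protects cohesion), Nusap1 (a spindle protein) and Cenpe (a kinetochore motor) were also called higher, with log2 differences of 2.01, 1.38 and 1.09. Sgo1, the shugoshin of cohesin protection in mitosis, and Ckap5, a microtubule polymerase, were called lower at -1.69 and -1.72. Sgo1 was scarce in all classes, with 1.33, 1.05 and 3.29 CPM in members.

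Most genes of the anaphase-promoting complex and its partners were not called. Of 22, 3 were called higher and 4 lower than in pachytene-list cells and 15 were not called, with a median of 0.30, where 8.81% and 16% of all genes were called. Without Insl6 in the choice 5 were higher and 3 lower, near the 22.7% and 11.8% of all genes. Pttg1, the securin that holds separase in check, had 478, 576 and 283 CPM in members and 276, 243 and 153 CPM in pachytene-list cells, without overlap, a log2 difference of 1.26 ± 0.31 (SE; adjusted p = 0.00825) in edgeR's test. Espl1, separase itself, and Fzr1, an activator of the complex, were the other higher calls at 1.11 and 1.42. The lower calls were 4 subunits of the complex, Anapc1 at -1.74, Anapc4 at -1.78, Anapc5 at -1.497 and Cdc16 at -1.24.

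Against the Acrv1 cells more genes of the division lists were called higher than lower. Of the 49 spindle and kinetochore genes, 38 were called higher in members and 2 lower, with a median of 2.00, where 30.3% of all 15997 genes were called higher and 25.2% lower with a median of 0.43. The corresponding counts were 10 higher and 1 lower of 27 for the Cdk1 list, with a median of 0.83, and 11 and 1 of 22 for the anaphase-promoting list, with a median of 1.24. Another scaling of the libraries, relative log expression, moved the median of all genes from 0.43 to 0.03 and turned the split of calls to 3618 higher and 4545 lower. With it 32 spindle and kinetochore genes were higher and 3 lower, with a median of 1.62. The Cdk1 list had 8 higher and 2 lower with a median of 0.42, and the anaphase-promoting list 8 and 1 with a median of 0.83. Under the main scaling the 10 higher calls of the Cdk1 list were near the share of all genes, and its 1 lower call was below it. The division lists hold genes of the same stage as Ccna1, Aurka and Plk1, which chose the members. Their higher calls are thus in part set by the choice.

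Nek2 fell from 183, 208 and 201 CPM in members to 8.23, 0.651 and 6.46 CPM in Acrv1 cells, and Cks2, a small subunit of cyclin-dependent kinases, from 491, 171 and 739.7 CPM to 29.3, 11.6 and 13.6 CPM. Neither overlapped, and both passed edgeR's test, at log2 differences of 5.09 and 4.59. Ccnb1 was an exception, with 129.8, 173 and 78.4 CPM in Acrv1 cells, values that overlapped those of members and gave a log2 difference of 0.83, below the 2-fold call. The Leydig list also moved in this comparison. It summed to 76.5, 39.8 and 107 CPM in members against 6.49, 5.33 and 1.30 CPM in Acrv1 cells, with 7 of 10 genes called higher where 30.3% of all genes were. Mitochondrial transcripts moved as well, from 0.887%, 0.213% and 1.01% of counts in members to 0.00544%, 0.00248% and 0.0598% in Acrv1 cells. The part of either in the differences of the division genes was not tested.

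**Figure D2:**
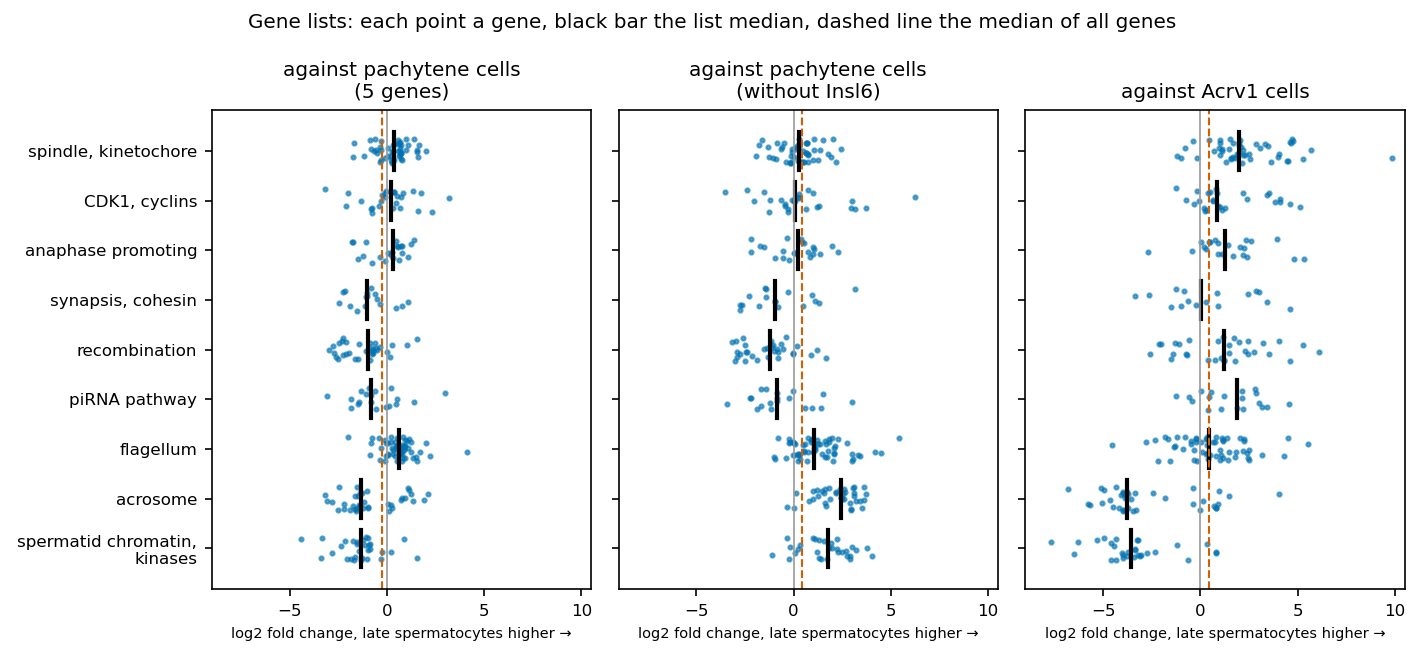
Log2 fold change of members against each comparison class (horizontal axis) for the tested genes of 9 lists, with a point for each gene, a black bar at the list's median and a dashed line at the median of all genes. The spindle and kinetochore medians are 0.38, 0.29 and 2.00 from left to right, while the acrosome medians are -1.31, 2.43 and -3.76, so that the direction of that list against pachytene-list cells depends on Insl6.

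Some genes of chromosome pairing were lower in members. Of 16 genes for the synaptonemal complex and meiotic cohesins, 6 were called lower and 1 higher than in pachytene-list cells and 9 were not called. Their median was -1.02, and 16% of all genes were called lower and 8.81% higher. Without Insl6, 7 of 17 were lower and 3 higher, where 11.8% of all genes were lower and 22.7% higher. Without replicates 1, 2 and 3 in turn, 2, 2 and 3 genes were called lower, where 438 of 18250, 713 of 18087 and 1141 of 15695 of all genes were. Sycp1 (ENSMUSG00000027855, chr3:102725709-102843455) had 188, 88.2 and 267 CPM in members and 1522, 488 and 1731 CPM in pachytene-list cells. Every member library lay below every pachytene-list library, although replicate 2 was lower in both classes. The log2 difference was -2.46 ± 0.44 (SE; adjusted p = 0.00187) with Insl6 and -2.77 ± 0.42 (SE; adjusted p = 0.000126) without it in edgeR's test.

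Tex12, a central element protein of the complex, had 66.8, 16.4 and 51.8 CPM against 370.1, 115 and 283 CPM. Sycp3, of the lateral element, had 420, 297 and 442 CPM against 1523, 432 and 1274 CPM, and overlapped because replicate 2 had little in both classes. Sycp3 missed the test with Insl6 and passed it without, at -1.40. Syce1, another central element gene, was the higher call, with 752, 825 and 546 CPM against 441, 559.9 and 244 CPM, and it too overlapped. The transcripts of one structure therefore did not move together.

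Of 32 recombination genes, 13 were called lower and 1 higher than in pachytene-list cells, with a median of -0.98, and 16 lower and 2 higher without Insl6. Over all genes 16% were lower and 8.81% higher, and 11.8% and 22.7% without Insl6. Without replicates 1, 2 and 3 in turn, 1, 9 and 8 recombination genes were called lower. Of all genes, 438 of 18250, 713 of 18087 and 1141 of 15695 were lower in these settings. The lower calls included Meiob, a single-strand DNA binding protein, with 21.7, 7.27 and 12.8 CPM in members and 193, 33.6 and 114 CPM in pachytene-list cells. Mnd1, a partner of the strand exchange proteins, had 7.17, 2.67 and 2.07 CPM against 78.6, 9.76 and 43.7 CPM. Neither gene's values overlapped, and replicate 2 was again the lowest pachytene-list library. Ccnb1ip1, which acts on crossover sites, was lower by the test at -2.46. Prr19, needed for crossovers, was the 1 higher gene, with 115, 102 and 85.3 CPM against 59.2, 41.4 and 31.8 CPM.

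Of 19 genes of the piRNA pathway, which silences transposons with small RNAs, 7 were called lower and 1 higher than in pachytene-list cells, with a median of -0.79, and 9 lower and 2 higher without Insl6. Over all genes 16% were lower and 8.81% higher, and 11.8% and 22.7% without Insl6. Piwil1, Tdrd5 and Tdrd6, which chose the pachytene-list cells, belong to the same pathway, so this direction is in part set by the choice. All choosing genes together, Insl6 included, were near level between members and pachytene-list cells. Without replicates 1, 2 and 3 in turn, 0, 5 and 2 genes of the list were called lower. These settings called 438 of 18250, 713 of 18087 and 1141 of 15695 of all genes lower. Piwil2 had 51.1, 28.2 and 95.6 CPM against 219, 55.2 and 405 CPM and Mov10l1, a helicase of the pathway, 38.9, 17.8 and 70.5 CPM against 207, 37.7 and 409.6 CPM. Both were lower by the test while replicate 2 of the pachytene-list cells lay within the range of the members. Henmt1, which methylates the ends of piRNAs, was the higher call with 63.7, 84.6 and 78.1 CPM against 29.9, 42.7 and 34.3 CPM. Against Acrv1 cells 11 genes of the list were called higher in members and 1 lower, with a median of 1.85, where 30.3% and 25.2% of all genes were called. The summed level of the list did not follow, at 3894, 4162 and 3447 CPM in members and 3326, 4179 and 4024 CPM in Acrv1 cells.

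Of 20 spermatogonial list genes, 4 were called lower than in pachytene-list cells, near the 16% of all genes, and 16 were not called. Their sums were 132, 86.7 and 142 CPM in members against 382, 166 and 300.5 CPM. Mitochondrial transcripts were at 1.99%, 0.373% and 3.41% of pachytene-list counts. Immune list genes summed to 6.84, 5.59 and 1.33 CPM in members against 3.36, 44.4 and 31.8 CPM, with 5 of 8 called lower where 16% of all genes were. Sertoli list genes summed to 89.1, 23.6 and 41.7 CPM in members against 151, 54.1 and 158 CPM, with 1 of 16 called lower. Leydig list genes summed to 76.5, 39.8 and 107 CPM against 72.1, 4.26 and 49.3 CPM, with none of 10 called. The part of these in the differences of pairing, recombination and piRNA genes was not tested.

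The direction of genes used after meiosis depended on the choice of the pachytene cells. Of 38 acrosome genes, 14 were called lower and 3 higher than in pachytene-list cells, with a median of -1.31, where 16% and 8.81% of all genes were called. Without Insl6 in the choice, 26 were higher and none lower, with a median of 2.43, where 22.7% and 11.8% of all genes were. Without replicates 1, 2 and 3 in turn, 3, 6 and 6 acrosome genes were lower than in pachytene-list cells. Of all genes, 438 of 18250, 713 of 18087 and 1141 of 15695 were then lower. The summed level of the acrosome list did not follow, at 5251, 6820 and 4690 CPM in members and 3613, 9165 and 4636 CPM in pachytene-list cells. It was lower in members in replicate 2 only. For 30 genes of spermatid chromatin, kinases and sheath proteins the counts turned from 11 lower and 1 higher to 1 lower and 18 higher. Smcp, a protein of the sperm mitochondrial capsule, had 74.96, 171 and 87.1 CPM in members. It had 388, 1126 and 387 CPM in pachytene-list cells and 9.66, 9.62 and 72.3 CPM in those chosen without Insl6, which lay below the members of every library. The 10 genes with the largest lower calls against pachytene-list cells, led by H1f7, the linker histone of spermatids, at -4.42, and Actrt2 at -3.99, all lost that direction without Insl6, at 0.048 and 0.80 for these 2.

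Examples of post-meiotic genes called higher in members under both choices were Zpbp2, Izumo4 and Catsper2, named after their values had been seen. Zpbp2, a zona pellucida binding protein of the acrosome, had 870.5, 1282 and 578 CPM in members, 182, 601 and 199 CPM in pachytene-list cells and 86.9, 198 and 69.4 CPM without Insl6. Izumo4, a sperm protein of the Izumo family, had 277, 375 and 218 CPM against 40.2, 159 and 71.0 CPM and 22.1, 47.8 and 31.6 CPM. Catsper2, a subunit of the sperm calcium channel, had 339, 411 and 264 CPM against 110.4, 194 and 130.3 CPM and 90.2, 123 and 102 CPM. Members of each library exceeded the highest pachytene-list library for Izumo4 and Catsper2, and for Zpbp2 only replicate 3 fell within its range. The log2 difference of Izumo4 was 2.13 ± 0.42 (SE; adjusted p = 0.00285) and 3.69 ± 0.42 (SE; adjusted p = 2.69e-05) in edgeR's test.

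Against Acrv1 cells both groups were lower in members, with 27 of 38 acrosome genes called lower and 2 higher, and 26 of 30 spermatid chromatin and kinase genes lower and none higher, where 4 were not called. Over all genes 25.2% were lower and 30.3% higher. Tssk2, a kinase of spermatids, had 39.6, 74.8 and 23.8 CPM in members and 1041, 924 and 720.2 CPM in Acrv1 cells. H1f7 had 2.63, 4.49 and 0.674 CPM against 503, 366 and 354 CPM. Neither overlapped. The Acrv1 cells were chosen by a gene of the same stage, so this direction is in part set by the choice.

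Of 58 genes of the flagellum, 8 were higher and 1 lower than in pachytene-list cells, with a median of 0.64, and 29 and 1 of 59 without Insl6. Over all genes 8.81% were higher and 16% lower, and 22.7% and 11.8% without Insl6. Without replicates 1, 2 and 3 in turn, 2, 6 and 2 flagellum genes were called higher. The same settings called 101 of 18250, 852 of 18087 and 707 of 15695 of all genes higher. Dnai2 (ENSMUSG00000034706, chr11:114614535-114648715), an intermediate chain of the outer dynein arm, had 119, 140.4 and 87.5 CPM in members. It had 5.14, 11.5 and 7.74 CPM in pachytene-list cells and 9.07, 3.69 and 3.26 CPM in Acrv1 cells. All member libraries lay far above both, and its log2 differences of 4.12 ± 0.59 (SE; adjusted p = 0.000811) and 4.31 ± 0.60 (SE; adjusted p = 8.44e-06) in edgeR's test made it the largest higher call of the first comparison among genes of at least 50 CPM.

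Rsph6a, a radial spoke head protein, had 402, 448 and 135 CPM against 73.6, 203 and 29.0 CPM, and Dnah10, a heavy chain of the inner dynein arm, had 29.6, 30.1 and 62.8 CPM against 7.24, 9.56 and 27.1 CPM. Replicate 3 was lowest for the former and highest for the latter in the members. Tekt3, a tektin of the microtubule wall, and Zmynd10, a dynein assembly factor, were called higher, the latter at 1.34. Against Acrv1 cells 23 were higher and 10 lower, with a median of 0.44, where 30.3% and 25.2% of all genes were called. With relative log expression scaling these became 14 and 12 with a median of 0.01.

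Other genes with the largest higher calls against pachytene-list cells were Pou5f2, Slc2a8, Rhcg, Mesp1, Asb4, Slc41a3, Slc22a21, 4930511A02Rik and Pbp2, at log2 differences of 3.55 to 2.82. Slc2a8, a sugar transporter, had 125, 141 and 39.9 CPM in members and 13.3, 17.7 and 6.04 CPM in pachytene-list cells. Mesp1, a transcription factor known from the embryonic mesoderm, had 783, 697 and 960.5 CPM against 60.1, 166 and 131 CPM. Neither gene's values overlapped. The log2 difference of Mesp1 was 3.16 ± 0.51 (SE; adjusted p = 0.00108) in edgeR's test, and in Acrv1 cells Mesp1 was at 130, 137 and 143 CPM.

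Pou5f2 (ENSMUSG00000093668, chr13:78173021-78174414), a POU domain transcription factor of male germ cells, had 101, 57.3 and 233 CPM in members. It had 5.93, 12.4 and 18.9 CPM in pachytene-list cells and 2.92, 0 and 2.35 CPM in Acrv1 cells. Members of every library were above both, and replicate 3 had the most. The log2 difference from pachytene-list cells was 3.55 ± 0.53 (SE; adjusted p = 0.000986) in edgeR's test. In cells of 4000 to 12000 counts only, a window chosen after the data had been seen, it was 1.77 with an adjusted p of 0.0507.

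Among the 10 largest higher calls against Acrv1 cells were Anp32b, a histone chaperone, with 132, 55.1 and 151 CPM in members and 0, 0 and 0.654 CPM in Acrv1 cells, and Ube2t, a ubiquitin conjugating enzyme of DNA crosslink repair, with 227, 142 and 293 CPM against 3.53, 0 and 2.68 CPM. Tcam1, a testicular cell adhesion gene, had 180.3, 131 and 162 CPM against 3.87, 0.402 and 0.803 CPM. The Acrv1 cells held 3.56 summed counts of Anp32b, so no fold is given for it, and the same holds for Eif2b1 and Fancg at 3.04 and 3.47. Ube2t and Tcam1 rested on 21.8 and 12.8 counts.

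The family of poly(A)-binding proteins and their partners, to which the marker Pabpc6 belongs, had calls in both directions. Of 25 genes, 3 were called higher and 7 lower than in pachytene-list cells, with a median of -0.74, where 8.81% and 16% of all genes were called. Pabpc2, another testis-expressed member, had 1330, 1803 and 946 CPM against 273, 999 and 342 CPM, with replicate 2 of the pachytene-list cells above the members of replicate 3. Papolb, the testis poly(A) polymerase, was called higher at 1.30. Of 18 genes searched for the Speer family, 10 were found and 9 tested, and 3 were called higher where 8.81% of all genes were, among them Speer2 with 263, 254 and 160 CPM against 93.1, 158 and 40.9 CPM. Without Insl6 in the choice 9 of 10 tested were called higher, where 22.7% of all genes were. Speer genes share near-identical copies, so their counts are uncertain one by one. Speer4e was among the genes that chose the members, so the direction of this family is in part set by the choice.

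The members were then ordered among themselves by late marker counts per 10000 counts and split into 4 bins of equal size in each library. This split was made after the data had been seen, uses the rule's own genes, and is described without a test. Limits of the bins in replicate 1 were 1.39 to 9.19, 9.20 to 19.0, 19.0 to 24.2 and 24.2 to 41.6 per 10000. The first bin ran from 2.75 to 16.7 in replicate 2 and from 2.09 to 9.12 in replicate 3. The same bin thus covers unlike ranges of late markers in different libraries, and its levels are not matched between them. Median counts of the first and last bins were 22008 and 16859 in replicate 1, 8266 and 7880 in replicate 2, and 10778 and 7503 in replicate 3. Of 4223 genes with at least 50 CPM in a bin, 61 (1.44%) were at least 2-fold higher in the last than in the first bin in each library and 263 (6.23%) were at least 2-fold lower.

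Sycp1 had 512, 186 and 569 CPM in the first bin, 77.3, 72.2 and 244 CPM in the second, 44.4, 54.1 and 131 CPM in the third and 35.0, 43.5 and 93.4 CPM in the last. It declined over every step in each library. Tex12 had 203, 47.1 and 133 CPM in the first bin and 5.13, 6.499 and 8.64 CPM in the last, and Dazl 252, 18.3 and 126 CPM and 4.16, 3.45 and 21.7 CPM. All 3 genes were thus highest in the first bin, in which replicate 2 had the lowest level of each.

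Ccnb1 had 31.1, 233 and 45.5 CPM in the first bin, 201, 401 and 84.7 CPM in the second, 402, 481 and 108 CPM in the third and 473, 518 and 169.9 CPM in the last. It increased over every step in each library. Cdk1 had 92.0, 77.3 and 84.4 CPM in the first bin and 204, 209.8 and 322 CPM in the last. Aurkb, Kif23, Incenp and Spc25 did likewise, with Aurkb at 2.65, 21.3 and 11.8 CPM and then 41.8, 54.5 and 74.9 CPM, and Kif23 at 14.7, 41.9 and 19.9 CPM and then 93.5, 118 and 84.7 CPM. Replicate 2 started from the highest level of Ccnb1, Aurkb and Kif23 in the first bin.

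In list terms 7 of 32 spindle and kinetochore genes were 2-fold higher in the last bin and none lower, and 4 of 18 genes of the Cdk1 list were higher and 3 lower, where 1.44% of all genes were higher and 6.23% lower. None of the 12 anaphase-promoting genes measured moved 2-fold in each library. Pttg1 went from 299, 358 and 221 CPM to 673, 721 and 376 CPM. Of 22 acrosome genes 1 was higher and 4 lower, and of 14 spermatid chromatin and kinase genes 3 were lower. Smcp declined from 105, 451 and 164 CPM to 3.74, 32.6 and 21.0 CPM and Izumo4 increased from 54.97, 215 and 103 CPM to 427, 464 and 335 CPM. Transcripts of later stages therefore went in both directions along the same order.

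Leydig list genes summed to 184, 133 and 181 CPM in the first bin and to 18.7, 4.13 and 2.41 CPM in the last, and Sertoli list genes to 197, 31.0 and 105 CPM and then to 38.01, 23.05 and 23.04 CPM. At the last bin 5, 3 and 5 of 10 Leydig genes were at 0. The order was not steady between these ends. Leydig genes of replicate 3 had 238 CPM in the second bin, above the first, while Sycp1 of that library was lower there. Sertoli genes had 18.8 CPM in the third bin of replicate 2 and 11.0 CPM in that of replicate 3, below the last. The part of somatic transcripts in the decline of pachytene ones was not tested. Among the genes that decreased most were Gstm1, Tex101 and Fabp3, at mean log2 ratios of -5.51, -4.29 and -3.89.

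**Figure D3:**
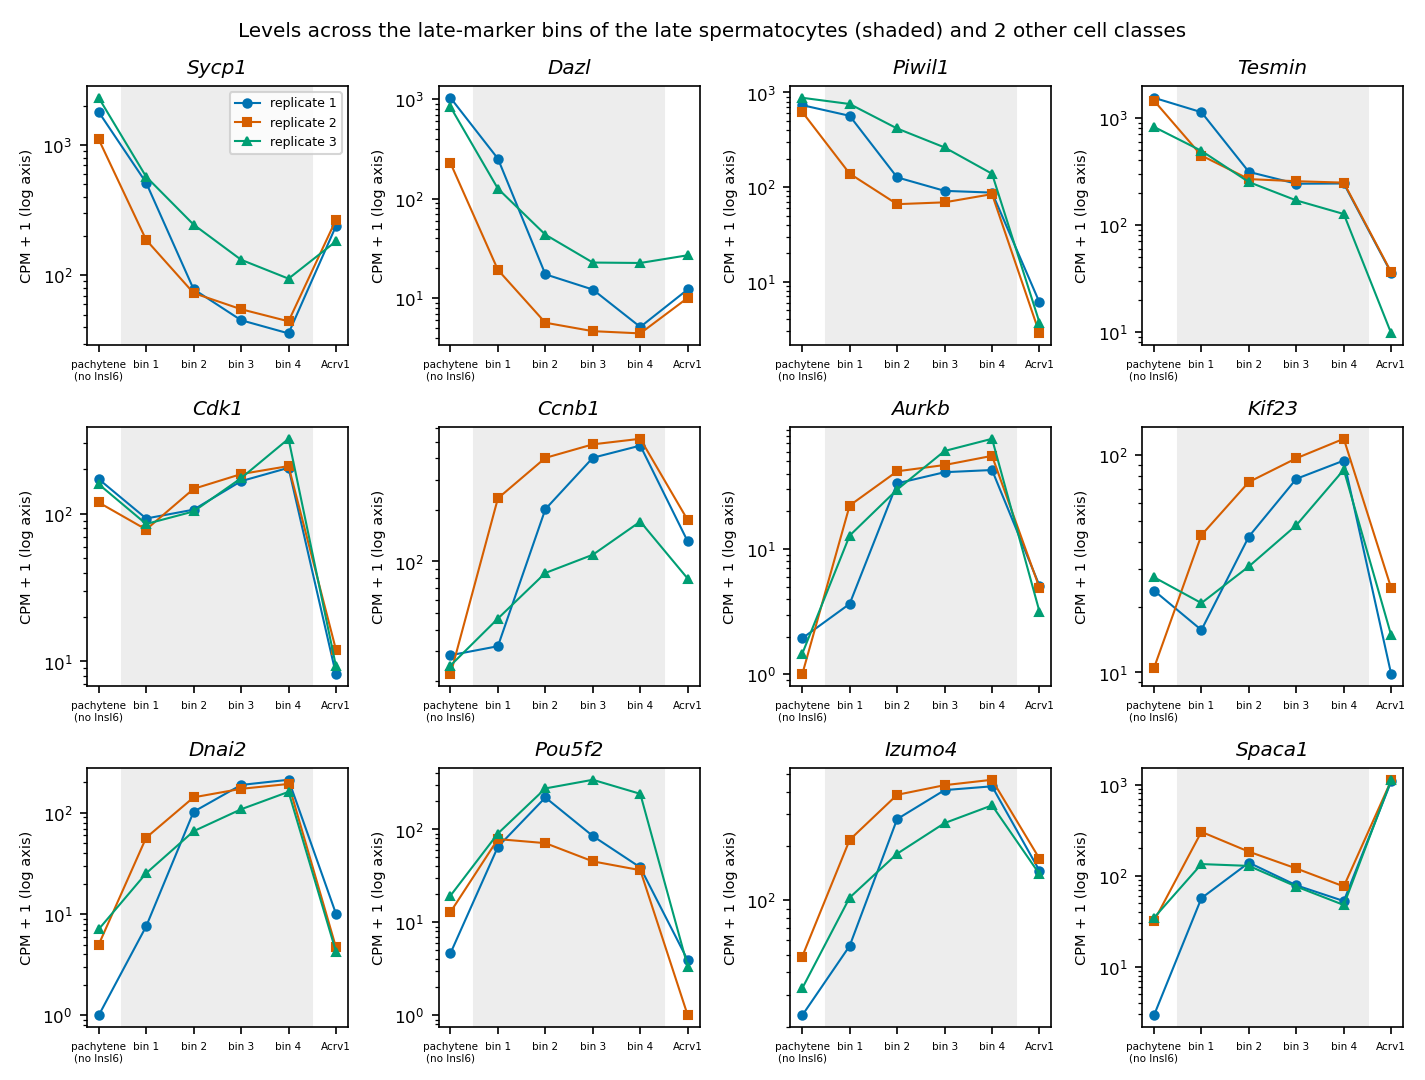
CPM + 1 (vertical axis, log scale) of 12 genes in the 4 bins of members by late marker counts (shaded), between pachytene cells chosen without Insl6 and Acrv1 cells, with a line for each library. Ccnb1, Cdk1 and Aurkb end the bins higher than they start in all 3 libraries, and Sycp1 ends lower, at 35.0, 43.5 and 93.4 CPM. Lines join classes of cells and are no measured time course.

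Pou5f2 did not follow either course. It had 64.1, 77.8 and 89.5 CPM in the first bin, 219.7, 70.3 and 275 CPM in the second, 84.0, 44.4 and 341 CPM in the third and 38.1, 35.5 and 241 CPM in the last. The highest bin was the second in replicate 1, the first in replicate 2 and the third in replicate 3. Nek2, in contrast, had 114, 125 and 147 CPM in the first bin and 251, 273 and 264 CPM in the last, and was higher in the last in each library.

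X-linked transcripts made up 0.175%, 0.278% and 0.185% of the members' counts, a mean of 0.212% ± 0.0570 (SD, n = 3). They made up 0.288%, 0.824% and 0.407% of pachytene-list counts (0.506% ± 0.281), but 0.109%, 0.0697% and 0.182% (0.120% ± 0.0568) when those cells were chosen without Insl6. In Acrv1 cells they made up 1.47%, 1.43% and 1.32% (1.41% ± 0.0735), and in cells with Dmrt1 and Crabp1 a mean of 2.21% ± 0.284. Members were below the Acrv1 cells in every library and without overlap.

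The mean log2 ratio of the X-linked share in members to that in Acrv1 cells was -2.76 ± 0.362 (SD, n = 3). Its exact two-sided sign-flip permutation p was 0.25, the smallest that 3 libraries allow. The ratio to pachytene-list cells was -1.14 ± 0.424 with the same p, and turned to 0.90 ± 1.00 (SD, n = 3) without Insl6. The log2 ratios of the libraries were then 0.69, 2.00 and 0.03, with a mean of 0.36 without replicate 2, so whether members held less or more X-linked RNA than pachytene cells depended on the choice of the latter. Within the members the mean share was 0.279%, 0.254%, 0.177% and 0.139% from the first to the last bin. Replicate 2 declined most, from 0.453% to 0.1695%, and replicate 3 from 0.243% to 0.112%. In replicate 1 the share was 0.142% in the first bin, 0.258% in the second and 0.134% in the last, so that its ends were nearly level.

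Of 586 X-linked genes tested against Acrv1 cells, 10 were called higher in members and 254 lower, with a median of -1.32, where 30.3% of all genes were higher and 25.2% lower with a median of 0.43. Against pachytene-list cells 1 was higher and 87 lower, with a median of -0.85, where 8.81% of all genes were called higher and 16% lower. The lower share was near that of all genes and the higher share far below it. Without Insl6 in the choice the split turned, with 119 of 615 higher and 14 lower and a median of 1.09, where 22.7% of all genes were called higher and 11.8% lower. The higher share was then near that of all genes and the lower share below it. Tsga8, a testis-specific chromatin gene on the X chromosome (ENSMUSG00000035522, chrX:82530284-82531530), took the most X-linked counts of the members at 7.85%, with 170.5, 231 and 97.7 CPM against 1479, 1292 and 1109 CPM in Acrv1 cells. Pgk1, the X-linked glycolytic kinase gene, was at 0.378, 0.723 and 1.40 CPM in members, while its autosomal retrocopy Pgk2 was at 224, 305 and 133 CPM. Of 12 autosomal relatives of X-linked genes, retrocopies among them, 2 were called higher than in pachytene-list cells, where 8.81% of all genes were. These were Cetn1, a centrin, at 1.32 and Gk2, a glycerol kinase, at 1.61, and without Insl6 in the choice 4 were higher and 1 lower, where 22.7% and 11.8% of all genes were called.

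**Figure D4:**
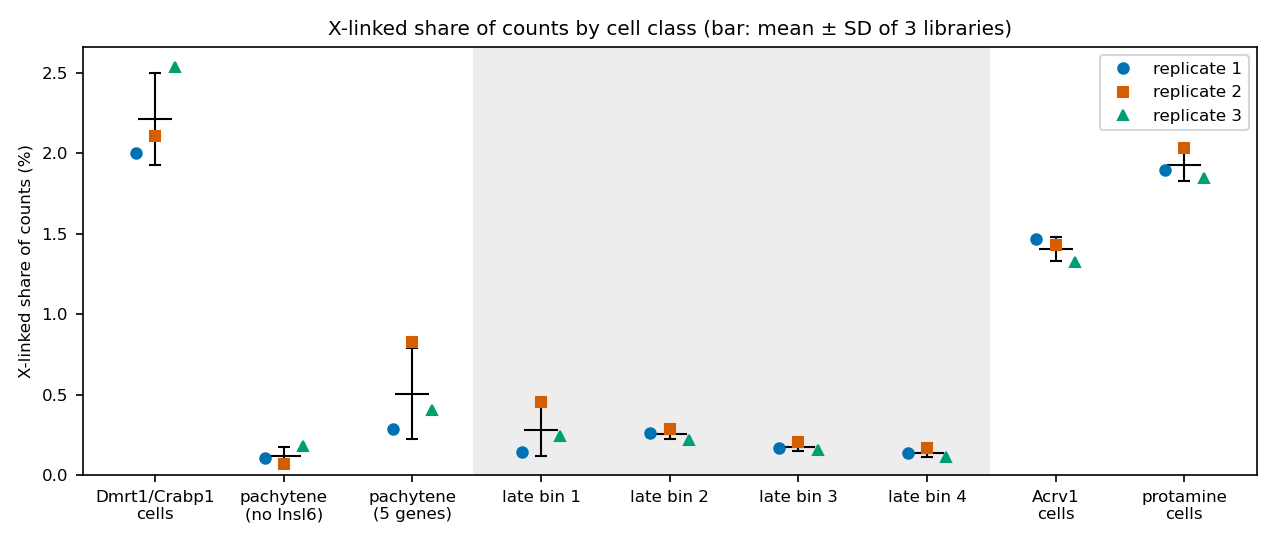
X-linked share of the summed counts in percent (vertical axis) by cell class, with a point for each library and a bar at the mean ± SD of 3 libraries. The 4 bins of members (shaded) have means of 0.279%, 0.254%, 0.177% and 0.139%, below the Acrv1 cells at 1.32% to 1.47%, while the pachytene cells lie at 0.0697% to 0.182% without Insl6 in the choice.

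Members with little Aurka and Plk1 were few. Only 5, 48 and 29 had a sum of these kinases under 0.5 counts, against 794, 2211 and 762 with at least 1.5, and only replicates 2 and 3 had enough cells for the comparison. Of 13199 genes, 664 were called higher with the kinases (5.03%) and 314 lower (2.38%) in edgeR's test with library as a block. Without the library block no gene was called, and 526 of the 13199 genes had an unadjusted p under 0.05 in edgeR's test, no excess of small values. DESeq2 with the block called 374 higher. The calls rest on the pairing of 2 libraries. The split also sorts members by 2 of the genes that chose them, so these counts are a description and nothing is read from them.

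Counts of lists are given on the same terms. Spindle and kinetochore genes were higher in 8 of 47 and lower in none, where 5.03% of all genes were higher and 2.38% lower. In the Cdk1 list 7 of 25 were higher and 1 lower. Both lists hold genes of the same stage as the 2 sorting kinases, so this direction is in part set by the split. Neil3, a DNA glycosylase, and Ggn, a germ cell gene needed for DNA repair in spermatocytes, were among the 10 largest higher calls. They were at 88.0 and 197 mean CPM with the kinases against 15.1 and 52.7 without. The cells without the kinases held only 9.47 and 33.1 summed counts of these genes. The 5 largest lower calls were Clu, Scd2, Aldh1a1, Mgst1 and Sparc. Clu, a Sertoli cell gene, had 0.378 CPM with the kinases against 92.8 CPM without, and 6 of 9 Sertoli list genes were called lower. The part of Sertoli transcripts in the other calls was not tested.

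The rule's own comparison, members against the sum of all other kept cells, called 4165 of 19509 genes higher (21.3%) and 7280 lower (37.3%), and nothing is read from these counts. By the naming rule the largest higher calls among them were 4930581F22Rik, Pou5f2, Lef1os1, 4932702P03Rik, Tchp, Zfp956, Pomc, Cdk20, Them6 and Nubp2. Tchp, a trichoplein of the centrosome, and Cdk20, a kinase that acts at cilia, had 143 and 99.1 mean CPM in members against 22.2 and 20.7 in the other cells.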

How the data were processed

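Gene expression was measured by droplet single-cell RNA sequencing of whole adult mouse testis in 3 libraries. Cell Ranger 6.0.1 and the build GRCm39 (mm39) are named in the submitters' processing notes. The deposited matrices hold estimated counts per gene and barcode, mostly not whole numbers, and the authors' step that made them so is not given in the sources used here. Summed counts were 5.73% to 14.1% below those with entries rounded up. The opossum and bulk samples were not used here.

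Kept barcodes had at least 1000 counts and 500 genes. Counts were summed per library and cell class, rounded, and fitted with edgeR 4.0.16 (R 4.3.3) by the quasi-likelihood test. The fits used TMM scaling, edgeR's filter on low counts and the library as a block. The pachytene-list and Acrv1 comparisons came from 1 fit that also held the protamine, Dmrt1 and Crabp1, and remaining cells. The comparison with all other cells and the kinase split were each fitted on their 2 groups alone. The 12 genes of the rule, and in the pachytene comparison the 5 that chose those cells, were not tested. Calls required an adjusted p (Benjamini-Hochberg) under 0.05 together with a log2 difference of at least 1. The library number pairs the classes because each class comes from the same library. Doublet scores came from Scrublet in scanpy 1.11.5. The members and the gene lists were chosen with earlier results of these data known. Genes named from each comparison were the 10 with the largest calls in each direction (5 for lower calls against all other cells and in the kinase split), with at least 50 CPM in the higher class and 1 direction in all libraries. Gene positions and promoters came from GENCODE vM39 on GRCm39, which matched 98.26% of 32532 features. On simulated data of the pachytene comparison 92.2% of genes changed 4-fold and 25.6% of those changed 2-fold were called, over 13307 genes. The simulation used a fixed dispersion of 0.05, the 2 classes alone and no library effect on single genes. It therefore does not measure recovery in the real comparison. Intervals cover counting error only. Alternatives were other scaling, no filter, DESeq2 1.42.0, no block, each library left out, 2000 counts per cell, entries rounded up, no cells of high doublet score, a marker limit of 5, cells of 4000 to 12000 counts and the list without Insl6. The last 2 and the bins of members were chosen after the data had been seen.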

Additional observations from a re-analysis of the deposited data

How the results depend on the processing

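Higher calls against pachytene-list cells numbered 1409, and 2534 with no low-count filter, 184 with no replicate block, 490 in cells of 4000 to 12000 counts and 3842 with the list without Insl6. Leaving out 1 library gave 101 to 852. Lower calls numbered 2552, 626 with no replicate block and 438 to 1141 with 1 library left out. The block changed no other count by over 1.5 times apart from the kinase split. In that split higher calls numbered 664, and 1176 with no filter, 374 with DESeq2 and 0 with no replicate block. Lower calls numbered 314, and 485 with relative log expression factors, 485 without the highest doublet scores and 0 with no replicate block. Replicate 1 had too few cells for that split and was never in it. Leaving out replicate 2 or 3, entries rounded up, the marker limit of 5 and the depth window could not be run for it, since too few cells without the kinases remained. With the list without Insl6, these values against pachytene-list cells reversed: the X-linked log2 ratio became 0.90, and the log2 differences became 0.048 for H1f7, 0.80 for Actrt2, 2.40 for BC048562, 2.20 for Tex29, 0.066 for Cdyl, 1.84 for Hmgb4, 1.31 for Fhl5, 0.96 for Iqcf1, 1.30 for 4930596D02Rik and 0.26 for Otub2. The counts over all genes against Acrv1 cells and against all other cells stayed within 1.5 times of the main value under every alternative run. The X-linked share of the members stayed within 1.5 times of its main value, or within 1 SD. The mean share of members stayed within 1 SD, but that SD was 11.9 on a mean of 16.5%, a wide limit. In replicate 3, 856 of 6301 cells of at least 2000 counts were members, and 353 of 6563 after thinning to 2000 counts. Flagellum genes higher than in Acrv1 cells went from 23 to 14 with DESeq2 or relative log expression factors. Few cells limit the precision of the pachytene-list class chosen without Insl6, with 67 cells in replicate 2, and of the members without the kinases, with 48 and 29 cells in replicates 2 and 3.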
